A study of Sus scrofa with 30 samples.

Results

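The row ssc-miR-4332 held more counts than any other row in most of the plasma small-RNA libraries of lethally irradiated Göttingen minipigs. It was selected on that measured level, the largest row in most libraries, so its rank and its share are given as a description and its dominance is not tested. It is 1 of the 411 miRNA rows in the summarised table, and it took 902400 of the 5983113 counts in the 24 libraries used, or 15.1%. The animals were 3 male minipigs, 4 months old at exposure, that received 2.2 Gy of total body irradiation (TBI) from a cobalt source, a dose lethal to 70% of animals within 45 days. None of the 3 survived. Plasma was drawn 7 days (C7) and 1 day (C1) before TBI, 6 hours after it (the time point named 0d) and then 7 more times between 1d and 20d, so each animal was its own baseline, and no sham-irradiated group was analysed here. The animals were irradiated under isoflurane with injected sedatives, and as the control arm of a countermeasure study they received 5% dextrose under the skin on days 1 and 8. Oral antibiotics were given while neutrophil counts were very low. Effects of radiation, anaesthesia, injections, antibiotics and repeated bleeding cannot be told apart in this design. The phases follow the study: pre-TBI joins C7 with C1, Early spans the draws from 0d to 7d, Mid joins 10d with 14d, Late is 17d alone and LR is 20d alone. They had been assigned from a principal component plot of the same libraries.

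MicroRNAs are short RNAs that are loaded into Argonaute proteins and silence messenger RNAs that pair with the seed near their 5′ end. Those in plasma travel in vesicles, in protein complexes and with lipoproteins, and are shed by blood cells, endothelium, liver and other organs. The name miR-4332 comes from the miRBase catalogue of pig miRNAs, and no function is assumed for it here. A count in a small-RNA library is a part of a fixed total, so more miR-4332 and less of the other RNAs cannot be told apart from its share. The same holds for the number of cells that release an RNA and the amount that each releases.

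Of the 30 libraries, 6 had fewer than 1000 counts and were left out. All 6 were the draws of minipig 3 from 3d onward, and held 0 to 17 counts each. The post-1d values therefore rest on minipigs 1 and 2. Totals of the other 24 ranged from 24341 (minipig 1 at C7) to 550316 (minipig 2 at 20d). Counting error was small beside the differences between libraries: the widest exact 95% binomial interval belonged to the smallest library, where a share of 9.65% had bounds of 9.28% and 10.0%. These intervals cover counting error only.

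ssc-miR-4332 ranked first in 21 of the 24 libraries, and ssc-miR-484 was the next row in 18 of those 21. In minipig 1 it made up 9.65% of the counts at C7 and 19.0% at C1. At 0d and 1d its shares in this animal were 18.0% and 17.6%, at 3d and 7d they were 14.4% and 15.0%, in the Mid draws (10d and 14d) they were 8.01% and 13.5%, at 17d the share was 0.830% and at 20d it was 19.1%. The 17d library stood far below the other 9 of this animal, and its share was high again in the next draw. Minipig 2 had 14.0% at C7 and 8.95% at C1. Its shares were 16.7% and 13.3% at 0d and 1d, 9.95% and 13.1% at 3d and 7d, 11.8% and 16.2% in the Mid draws, 10.3% at 17d and 12.7% in the last draw. Its lowest share was a pre-TBI one. In minipig 3 the row took 11.1% at C7, 14.3% at C1, 19.8% at 0d and 20.2% at 1d, the 1d value being the highest of all 24 libraries. The pre-TBI range of 8.95% to 19.0% contained 13 of the 18 post-TBI libraries, with 3 above it and 2 below it.

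**Figure D1:**
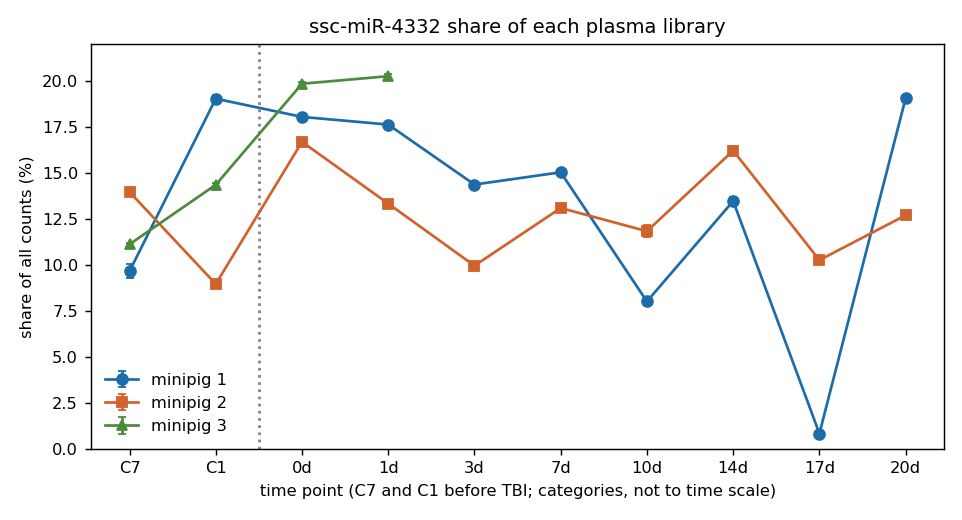
Share of ssc-miR-4332 in each of the 24 libraries (percent of all counts, vertical axis) at the 10 time points (horizontal axis, evenly spaced), with a line for each minipig and bars for the exact 95% binomial interval. The shares lie between 8.01% and 20.2% except in minipig 1 at 17d, at 0.830%.

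The row lost first place in 3 libraries. In minipig 1 at 10d it ranked second, at 8.01%, behind ssc-miR-9850-5p at 13.7%. In minipig 1 at 17d it ranked 12th, with 242 of 29159 counts (0.830%, exact 95% interval 0.729% to 0.941%), and ssc-miR-9850-5p led at 12.6%. In minipig 2 at 17d it ranked behind 2 rows at 10.3%, the first being ssc-miR-182, a member of the miR-183 cluster known from sensory organs, at 17.7%. Thus 2 different rows stood first where miR-4332 did not, and its own share in minipig 2 at 17d was still inside that animal's pre-TBI range. The rows ssc-miR-490 and ssc-miR-490-3p held identical counts in all 24 libraries, 2093 each in minipig 1 at 17d. Both are counted in the rank of 12 there, and in all totals, shares and row numbers.

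ssc-miR-484, a miRNA made without Drosha from a capped precursor, had the second-highest median share over the libraries, 8.45%. The next rows were ssc-miR-9828-3p at 3.01%, ssc-miR-9850-5p at 2.15%, ssc-miR-10b, which lies in a Hox gene cluster, at 2.05%, and ssc-miR-874 at 1.94%. The median of miR-4332 was 13.7%, and that of the median other row was 0.0491%. ssc-miR-4332 stayed above miR-484 in all 24 libraries, including the 3 where another row led, with a ratio of counts between 1.06 (minipig 1 at 0d) and 3.89 (minipig 1 at C7). At 17d that ratio was 2.92 in minipig 1 and 3.23 in minipig 2.

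**Figure D2:**
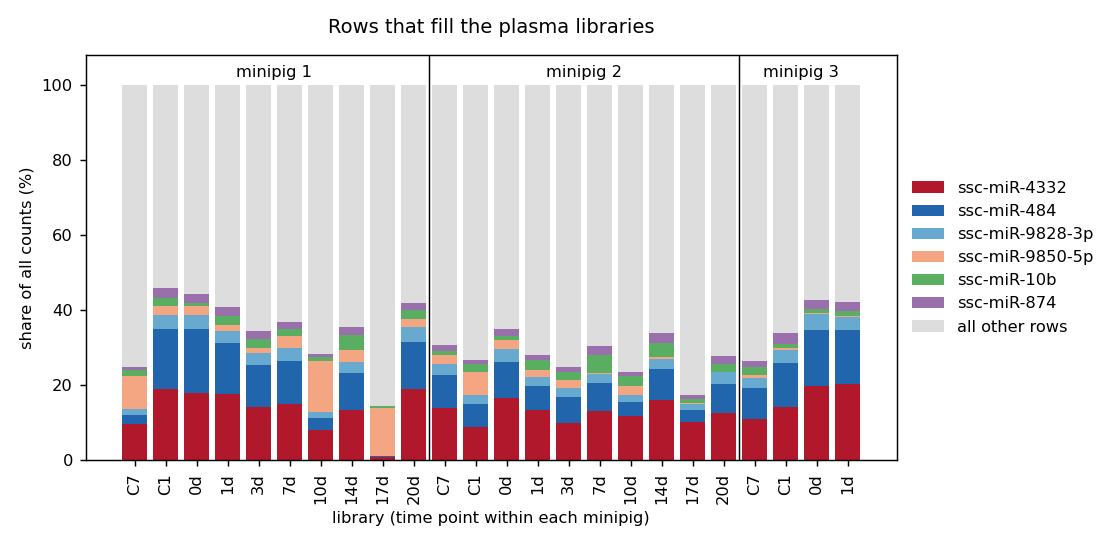
Composition of the 24 libraries, as the percent of all counts (vertical axis) held by ssc-miR-4332, by the 5 other rows with the highest median share and by all other rows, ordered by minipig and time point. The miR-4332 and miR-484 segments shrink together in minipig 1 at 10d and 17d, where ssc-miR-9850-5p holds 13.7% and 12.6%. They are also small in that animal at C7, before TBI, at 9.65% and 2.48%, where ssc-miR-9850-5p holds 8.78%.

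Whether the share moved after TBI was asked with a two-sided exact permutation test that shifted time labels within each minipig, since the animals were sampled repeatedly. Before TBI the mean share was 12.8% ± 3.74 (SD, n = 6). In Early it was 15.8% ± 3.26 (n = 10), higher by 2.98 percentage points (exact p = 0.103, Benjamini-Hochberg adjusted over the 4 phases 0.412). In Mid it was 12.4% ± 3.43 (n = 4), a difference of -0.466 points (exact p = 0.889, adjusted 0.889). In Late it was 5.54% ± 6.66 (n = 2), a difference of -7.30 points (exact p = 0.333, adjusted 0.667). In LR it was 15.9% ± 4.50 (n = 2), a difference of 3.03 points (exact p = 0.556, adjusted 0.741). The Late difference was -2.59 points without the 17d library of minipig 1 and -12.0 without that of minipig 2. The lowest of the 4 adjusted p-values in this test was 0.412, for Early. With 2 libraries in a phase the smallest p the test can give is 0.111, whatever the shares are. It therefore cannot decide whether the share moved in Late or LR. For Mid the smallest p is 0.0278, which cannot fall under 0.05 once adjusted over the 4 phases, so the adjusted test cannot decide there. Without the C1 library of minipig 1 the Early difference was 4.21 points (exact p = 0.0222), and over all alternatives for Early this p ranged from 0.0222 to 0.427.

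Set against the animal's own pair of baseline draws, 11 of the 18 post-TBI shares lay between the C7 and C1 values, 5 lay above both and 2 lay below both. Those above were minipig 2 at 0d and 14d, minipig 3 at 0d and 1d, and minipig 1 at 20d, which exceeded its C1 value of 19.03% by value only, at 19.05%. The pair below were minipig 1 at 10d and 17d. Against the mean of the animal's own baseline draws, the 0d share was higher in all 3 animals, by 3.70, 5.23 and 7.11 points in minipigs 1, 2 and 3, and the 1d share by 3.28, 1.87 and 7.52 points. These differences by time point are given as values, with no test of the share. The baseline draws themselves differed by up to 9.38 points within an animal, from 9.65% at C7 to 19.0% at C1 in minipig 1, and they moved up in minipigs 1 and 3 and down in minipig 2. ssc-miR-4332 did not pass the test between C1 and C7 in edgeR's quasi-likelihood fit (log2 fold change 0.37, SE 0.68, adjusted p = 0.997), where 0.73% of all rows passed an unadjusted p under 0.05 and 0% the adjusted one.

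Ordered by mean share, the time points ran from 0d (18.2%, n = 3) through 1d (17.1%, n = 3), 20d (15.9%, n = 2), 14d (14.8%, n = 2), C1 (14.1%, n = 3), 7d (14.1%, n = 2), 3d (12.2%, n = 2), C7 (11.6%, n = 3) and 10d (9.92%, n = 2) to 17d (5.54%, n = 2). The ranges of every pair of neighbours in this order overlapped. At 0d the row was higher than at C7 in all 3 animals, but lower than at C1 in minipig 1.

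The same question was put to the counts with edgeR's quasi-likelihood test after TMM scaling, with p-values adjusted over all 411 rows. In Early the log2 fold change against pre-TBI was 0.37 (SE 0.41, adjusted p = 0.587), in a comparison where 0% of rows passed the adjusted threshold of 0.05 and 18.7% passed it unadjusted. In Mid it was -0.09 (SE 0.50, adjusted p = 0.978), against 0% and 5.35% of rows. In Late it was -1.16 (SE 0.68, adjusted p = 0.298), against 4.38% and 22.6%. In LR it was 0.36 (SE 0.62, adjusted p = 0.793), against 0% and 5.6%. edgeR called ssc-miR-4332 in none of these, at either threshold. In the Late comparison 32 of the other rows had a lower log2 fold change and 378 a higher one, while the median over all rows was 0.08. With DESeq2's Wald test as an alternative, the Late value of miR-4332 was -1.14 (unadjusted p = 0.0348, adjusted p = 0.168). It passed the unadjusted threshold only.

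With all 24 libraries, steps between successive phases were not called by edgeR either. From Early to Mid the log2 fold change of the row was -0.46 (SE 0.47, adjusted p = 0.543), where 0% of all rows passed adjusted and 23.1% unadjusted. From Mid to Late it was -1.07 (SE 0.71, adjusted p = 0.419), against 4.62% and 17.5%. From Late to LR it was 1.52 (SE 0.79, adjusted p = 0.188), against 0.73% and 32.1%. By time point the log2 fold changes against pre-TBI were 0.76 for 0d (adjusted p = 0.525) and 0.42 for 1d (adjusted p = 0.761), with SE between 0.57 and 0.72 throughout. In the 0d comparison 0% of rows passed adjusted and 8.52% unadjusted, and for 1d these were 0% and 12.2%. The value for 3d was -0.10 (1.22% of rows adjusted, 8.52% unadjusted), that for 7d was -0.04 (0% and 8.27%), that for 10d was -0.26 (0% and 7.3%) and that for 14d was 0.07 (0.243% and 9%). For 17d it was -1.16 (4.87% and 23.8%) and for 20d 0.36 (0.73% and 7.06%). ssc-miR-4332 passed neither threshold at any of the 8 time points, with adjusted p-values between 0.328 and 0.996. For the step from Late to LR, DESeq2's Wald test gave 1.43 (unadjusted p = 0.0303, adjusted p = 0.0989).

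The Late value rested on 1 library. With the fit limited to the other animals, it was -0.08 without minipig 1 (adjusted p = 0.965) and -3.84 without minipig 2 (adjusted p = 0.0130), and it was -1.27 without minipig 3. Leaving out only the 17d library of minipig 2 gave -3.47 (adjusted p = 0.0107), and leaving out only that of minipig 1 gave -0.27 (adjusted p = 0.882). Where 1 library is left in Late, its spread is taken from the other groups. Over all alternatives the adjusted p for Late ranged from 0.0107 to 0.965. In Early the log2 fold change of 0.37 was 0.07 without minipig 3, 0.19 without the C1 library of minipig 2, 0.24 without the C7 library of minipig 3, and 0.23 without the 0d library of either minipig 1 or minipig 3. Without minipig 3 the values at 0d and 1d were 0.43 and 0.08. Signs also turned on 1 library where values were small: LR was -0.39 without the 20d library of minipig 1, and Mid was 0.12 without the C1 library of minipig 1 and 0.003 without the 10d library of minipig 2. The LR share difference was -0.150 points without the 20d library of minipig 1, and that for Mid was 0.990 without its 10d library and 0.771 without its C1 library. The Late to LR step ran likewise from -0.02 without minipig 1 to 4.44 without minipig 2, and the Mid to Late step from -3.66 without minipig 2 to -0.18 without the 17d library of minipig 1.

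**Figure D3:**
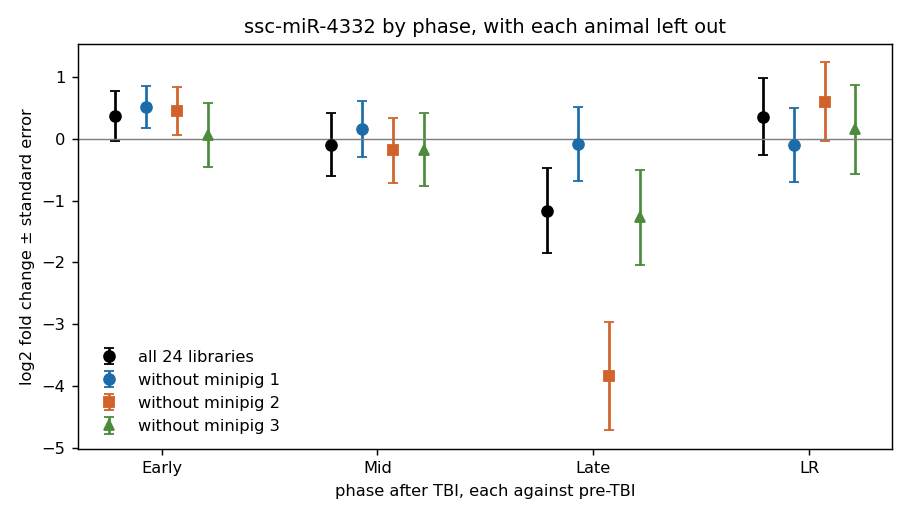
Log2 fold change of ssc-miR-4332 in each phase against pre-TBI (vertical axis, with bars for the standard error), from all 24 libraries and with each minipig left out. The Late estimate runs from -3.84 without minipig 2 to -0.08 without minipig 1, while the Early, Mid and LR estimates stay between -0.19 and 0.60.

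Several other quantities were extreme in the 17d library of minipig 1. Its total, 29159, was the second smallest of the 24, and the other 17d library held 63441. Thinning all libraries to 24341 counts gave a Late log2 fold change of -1.14 for miR-4332. Against the median of the other 9 libraries of that animal, miR-4332 was at -4.18 on the log2 scale, with a median of -0.04 over all rows. Only 4 rows lay further down: miR-484 at -5.32, miR-325, miR-9808-3p and miR-20b, the last 3 with 0 counts there. The marker rows of red cells (miR-16, miR-92a, miR-144, miR-451 and miR-486) summed to 1.06% of that library and those of platelets and white cells (miR-126, miR-142, miR-150 and miR-191) to 0.230%, each the lowest of the 24 libraries. Their part in the result was not tested. Over all 24 libraries the red cell rows summed to between 1.06% and 11.8%, with none at 0 in any library, and the platelet and white cell rows to between 0.230% and 7.77%. The hepatocyte miRNA miR-122 took 0.127% of the 17d library of minipig 1, the second-highest share of the 24 libraries, which ranged from 0.0279% to 0.147%. It stood 1.01 above the median of the animal's other libraries on the log2 scale. On that scale the single red cell rows ran from -2.14 for miR-16 to 0.12 for miR-144. The single platelet and white cell rows ran from -3.40 for miR-191 to 0.90 for miR-142-3p, with miR-142-5p at 0.48. The low sums therefore do not hold for every blood cell row.

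Lower shares of miR-4332 occurred in the smaller libraries. In the 8 libraries with the smallest totals, 24341 to 139786 counts, its median share was 11.0%. In the 8 middle ones it was 14.2%, and in the 8 largest, 356011 to 550316 counts, 15.5%. The ranges of these sets overlapped, and the first set held all 4 Mid and both Late libraries. Thinning draws counts at random and leaves the expected share of a row as it was, so it cannot address this. The part of depth in the phase values was not tested.

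The effect of the row on the other rows' shares is arithmetic: taking it out of the total multiplies every other share by the same factor within a library. That factor ran from 1.01 in minipig 1 at 17d to 1.25 in minipig 3 at 1d. On the log2 scale its mean was 0.20 pre-TBI, 0.25 in Early, 0.19 in Mid, 0.08 in Late and 0.25 in LR. The differences from pre-TBI were 0.05, -0.01, -0.12 and 0.05. None passed the exact permutation test within minipigs (adjusted p of at least 0.519 over 28 tests of 7 measures). The factor follows from the share alone, so its test largely repeats that of the share. In Late and LR, with 2 libraries each, that test cannot give a p under 0.111, so it cannot decide there. In Mid its smallest p, 0.0278, cannot fall under 0.05 once adjusted over these tests. For comparison, the median absolute log2 fold change of the other rows was 0.34 in Early, 0.28 in Mid, 0.70 in Late and 0.46 in LR. As a measure of evenness, the number of equally abundant rows that would give the same concentration (the inverse Simpson index) averaged 25.2 over the 24 libraries with miR-4332 and 37.7 without it. Before TBI the means were 28.7 and 39.2. In the 3 libraries where another row led, the direction was the opposite: the number was 21.0 with the row and 20.6 without it in minipig 1 at 10d, 18.6 and 18.3 in minipig 1 at 17d, and 16.3 and 15.8 in minipig 2 at 17d.

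Comparisons of the other 410 rows were then made with the row kept and left out, scaled by library size alone. Without miR-4332, 69 rows passed an unadjusted p under 0.05 in Early (16.8%) against 72 with it (17.6%), and 69 were shared. In Mid 15 passed (3.66%) against 11 (2.68%), with 11 shared. In Late 79 passed (19.3%) against 81 (19.8%), with 73 shared. In LR 26 passed (6.34%) against 27 (6.59%), with 26 shared, and with the minipig as a block in the fit 54 passed without the row. These counts moved more with the animals than with the row: without miR-4332, Early had 35 calls without minipig 3, Mid had 30 without minipig 1 and 38 without minipig 2, and LR had 65 without minipig 1 and 10 without minipig 2. In Late there were 43 calls without the 17d library of minipig 1, 164 without that of minipig 2 and 47 without minipig 3. Leaving out an animal also removes libraries, which leaving out the row does not, so these changes are not like for like. On the table without miR-4332, Early had 65 calls without minipig 1 and 76 without minipig 2. Without minipig 3, Mid had 18 calls and LR had 34. The median shift of a log2 fold change on leaving the row out was 0.05 in Early and 0.00 in Mid. It was -0.10 in Late and 0.05 in LR. Between 2 and 15 of the 410 rows changed sign in a phase.

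At an adjusted p under 0.05 the counts were 14 without the row and 13 with it in Early, all of them lower than pre-TBI, and 10 and 10 in Late, all of them higher. With the minipig as a block, or without minipig 1 or minipig 3, the Early count without the row was 0, and it was 23 without the C7 library of minipig 1. The Late count and its direction rested on single libraries: without the row it was 113 (23 higher and 90 lower) without the 17d library of minipig 2, 75 (5 higher and 70 lower) without minipig 2, 42 (27 higher and 15 lower) without the C7 library of minipig 1, and 18 (17 higher and 1 lower) without the 17d library of minipig 1. It was 16 (all higher) without minipig 1, 7 (6 higher and 1 lower) without minipig 3, and 14 (10 higher and 4 lower) with the minipig as a block. The Early row gained was ssc-miR-1, the muscle miRNA, at a log2 fold change of -1.47 (SE 0.41, adjusted p = 0.0478) without miR-4332 and -1.53 (SE 0.43, adjusted p = 0.0517) with it. With all 24 libraries no row passed the adjusted threshold in Mid or LR either way with edgeR, nor with DESeq2 on the table without the row, which gave 31 and 56 rows at an unadjusted p under 0.05. Without minipig 1, edgeR called 7 rows in LR, all higher. In Late the split of the unadjusted calls was 30 higher and 49 lower without miR-4332, and 38 higher and 43 lower with it.

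TMM scaling, which trims extreme rows before it sets a factor for each library, responded more to the presence of the row. In Early 76 rows passed unadjusted without it (18.5%), 5 higher and 71 lower, against 77 with it, 21 higher and 56 lower, and 61 were shared. At an adjusted p under 0.05 edgeR called 15 rows without miR-4332 and 0 with it. DESeq2 called 33 on the table without it, and its count with the row kept was not made. In Late 83 rows passed without it (20.2%), 43 higher and 40 lower, against 93 with it, 64 higher and 29 lower. At an adjusted p under 0.05 the Late numbers in edgeR were 12 without it and 18 with it. In Mid the numbers were 17 (4.15%) and 22, and in LR 22 (5.37%) and 23. Under TMM the median shift of a log2 fold change on leaving the row out was -0.09 in Early and -0.02 in Mid. It was -0.13 in both Late and LR, and between 6 and 33 rows changed sign in a phase. In Early and LR these shifts were opposite in sign to those by library size. The reference library that edgeR picked also differed: it was minipig 2 at C1 with the row in the table and minipig 1 at 14d without it. The part of that choice in the counts was not tested.

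**Figure D4:**
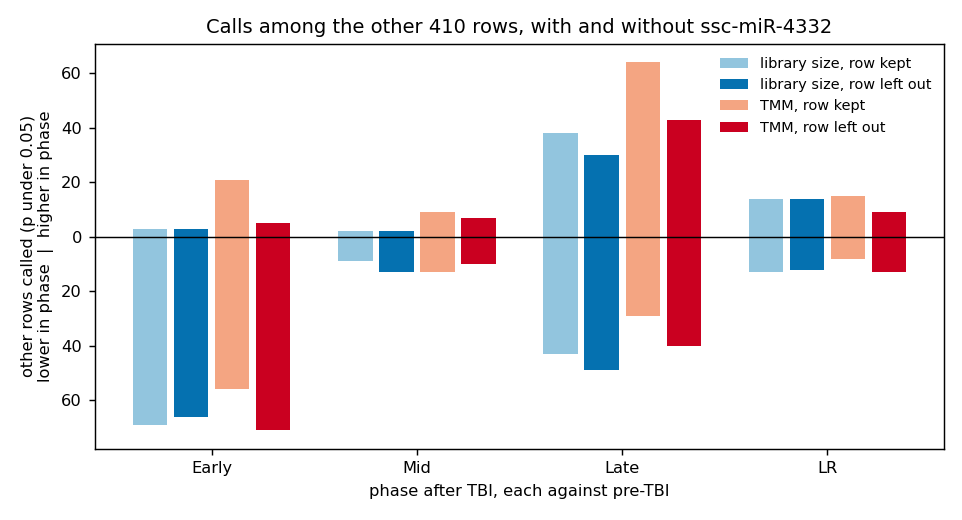
Number of the other 410 rows with an unadjusted p under 0.05 in each phase against pre-TBI, counted upward where higher and downward where lower in the phase, with ssc-miR-4332 kept or left out and with 2 scalings. Under library size the bars for kept and left out are close, and under TMM the Late bars change from 64 higher and 29 lower to 43 higher and 40 lower when the row is left out.

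Scaling also set the centre of the Late comparison. The median log2 fold change of the other rows was -0.21 by library size with the row kept and -0.31 with it left out, 0.08 by TMM with it and -0.06 by TMM without it. The fold change of miR-4332 itself in Late was -1.21 by library size and -1.14 by TMM factors computed without it.

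Rows whose log2 level, as CPM (counts scaled to a fixed total) of the table without miR-4332, followed the share of miR-4332 were ranked by Spearman correlation over the 24 libraries. The points share animals, library totals and scaling, so the correlations are a description. The most alike were ssc-miR-125a, of the lin-4 family, at 0.94, ssc-miR-9828-3p and ssc-miR-484 at 0.93 each, ssc-miR-92b-5p at 0.93 and ssc-miR-1285 at 0.92. Without the 17d library of minipig 1 these 5 ranged from 0.91 to 0.93, and centred within each minipig from 0.92 to 0.94. In minipig 1 alone they ranged from 0.89 to 0.98, and in minipig 2 alone they were lower, from 0.67 to 0.87. Over the 24 libraries and all 410 rows the median was -0.08, and 24 rows were above 0.8. Median shares of the 5 spanned 0.187% for miR-125a to 8.45% for miR-484, so both modest and abundant rows were among them.

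The least alike were ssc-miR-542-3p, of the miR-424 and miR-503 cluster, at -0.89, ssc-miR-335, which lies in an intron of MEST, at -0.86, ssc-miR-130b and ssc-miR-628 at -0.81 each, and ssc-miR-9843-3p at -0.75. All 5 were rare, with median shares of 0.00323% to 0.0155% and as few as 1 to 6 counts in a library. Their Spearman values ran from -0.89 to -0.61 in minipig 1 alone and from -0.68 to -0.59 in minipig 2 alone. In minipig 1 at 17d, miR-335 stood 3.60 above and miR-542-3p 2.46 above the median of the animal's other libraries on the log2 scale. In the Late comparison with TMM, miR-130b had a log2 fold change of 1.31 (SE 0.36, adjusted p = 0.0403), and the other 4 had values from 0.98 to 2.31 that did not pass the adjusted threshold. The 5 most alike rows had Late log2 fold changes between -2.27 for miR-484 and -1.14, and none passed it. These rows were picked for their likeness over the same libraries, so their Late values are not independent of that choice.

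**Figure D5:**
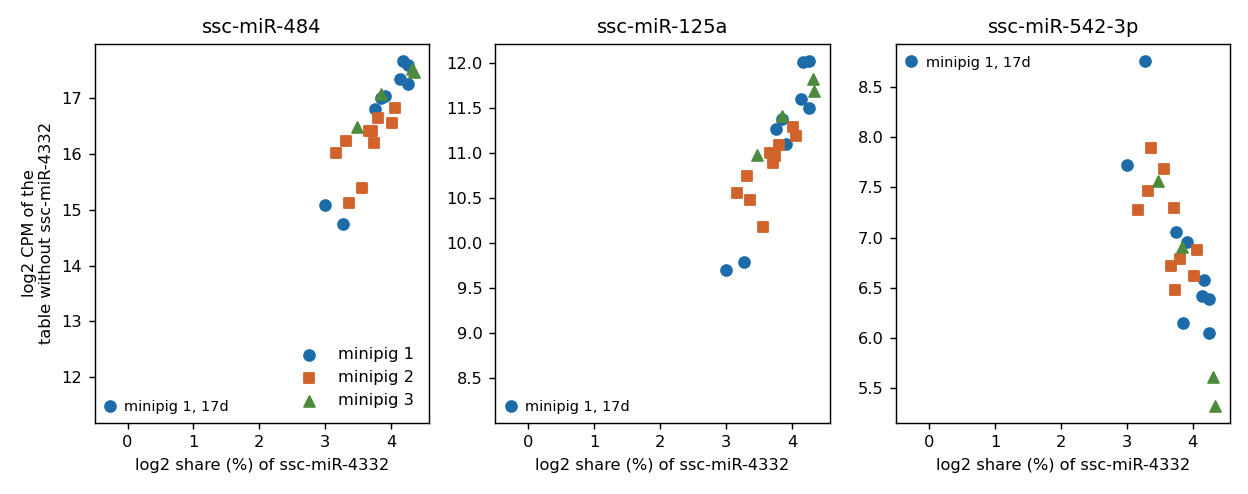
Log2 CPM of 3 rows in the table without ssc-miR-4332 (vertical axes) against the log2 percent share of ssc-miR-4332 (horizontal axes) in the 24 libraries, by minipig. ssc-miR-484 and ssc-miR-125a rise with it and ssc-miR-542-3p falls, with Spearman values of 0.93, 0.94 and -0.89, and minipig 1 at 17d lies apart at the left of each panel.

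Pig rows with neighbouring catalogue numbers were far less abundant. The 7 rows were miR-4331, miR-4334-3p, miR-4334-5p, miR-4335, miR-4337, miR-4338 and miR-4339, and together they took 0.456% to 2.98% of a library. Their Spearman correlations with the share of miR-4332 ran from -0.55 for miR-4337 to 0.80 for miR-4339, with 5 of the 7 above 0. In each of the 4 phases 0 of the 7 passed an unadjusted or adjusted p under 0.05 in edgeR's test. Over all rows the unadjusted shares were 18.7%, 5.35%, 22.6% and 5.6% in Early, Mid, Late and LR, and the adjusted ones 0%, 0%, 4.38% and 0%, so 0 of 7 is not read as a result about these rows. Their median log2 fold change was 0.30 in Early, 0.28 in Mid, -0.39 in Late and 0.17 in LR, beside 0.02, 0.05, 0.08 and -0.01 over the other 410 rows.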

How the data were processed

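Each library was made from 5 µl of plasma with a TruSeq small RNA kit and sequenced on a NextSeq. The authors trimmed adapters with cutadapt 1.16 and, per the submitters' processing notes, aligned with Bowtie2 2.2.3.0. The deposited unit is raw counts per miRNA row. No molecular identifiers are described, so PCR copies count as reads, and ligation bias of the kit can set a row's level.

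Libraries under 1000 counts were left out. Totals of the other 24 were 24341 to 550316. The row, the lists and the tests were chosen with earlier results of these data known. Counts were fitted with edgeR 4.0.16 (R 4.3.3): the study's filter (CPM above 0.5 in 10% of libraries, which removed no row), TMM, phase only, quasi-likelihood test, Benjamini-Hochberg adjustment over 411 rows. DESeq2 1.42.0 was an alternative. The code was tested on simulated data. Shares were tested by exact permutation within minipigs (SciPy 1.17.1). Same-minipig libraries deviated together when pooled (mean correlation 0.17 over 78 pairs, against -0.10 over 130 pairs of different animals). By animal the mean was uneven: 0.25 in minipig 1 (37 pairs), 0.04 in minipig 2 (37 pairs) and 0.57 in minipig 3 (4 pairs). The labels pair libraries by animal, so without a block repeated draws are treated as separate samples. No 2 libraries of a phase agreed within sampling noise.

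Named rows were the 10 with the highest median share, the 5 most and 5 least alike, and the listed markers. No sequence or coordinate of ssc-miR-4332 was analysed here.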

Additional observations from a re-analysis of the deposited data

Results flagged for a closer look

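Minipig 1 at 17d was the lowest of that animal's 10 libraries in the normalised level of ssc-miR-4332, at 13.49 log2 CPM, with the nearest of the others at 16.78. The gap took up more of the whole range than Dixon's 95% limit for 10 values allows. The ratio of ssc-miR-4332 to ssc-miR-484 was 3.89 in minipig 1 at C7, the highest of the 6 pre-TBI libraries, with the nearest at 1.59, and it also passed Dixon's limit. That library has the smallest total of all, 24341 counts. Over the 24 sets of values examined in this way, chance alone passes about 1 in 20.

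Outside the libraries compared, the nearly empty 17d library of minipig 3 held 4 counts of ssc-miR-4332 among its 17, a share of 23.5% (exact 95% interval 6.81% to 49.9%), by value above the highest pre-TBI share of 19.0%. The interval includes every pre-TBI share.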

How the results depend on the processing

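Of 311 alternatives, 271 left the direction and the side of the threshold as they were, or a count within 1.5 times. No reversed value of ssc-miR-4332 was called. Library size alone gave 0.13 at 7d, and C7 alone as baseline gave 0.13 for Mid and 0.80 points for the Mid share. Leaving out single minipigs or libraries gave, as lowest and highest log2 fold changes, -0.10 to 0.38 at 14d, -0.10 to 0.60 at 20d, -0.16 to 0.10 at 3d, -0.16 to 0.081 at 7d, -0.10 to 0.79 for C1 against C7, 0.065 to 0.52 for Early, -0.19 to 0.17 for Mid, -0.39 to 0.64 for LR, -3.84 to -0.080 for Late, -3.66 to -0.18 for Late against Mid, and -0.017 to 4.44 for LR against Late. The share differences ran from 1.86 to 4.21 points in Early, -2.80 to 1.92 in Mid, -12.7 to -1.84 in Late and -0.150 to 6.21 in LR. Counts of other rows called ran from 35 to 76 in Early, 18 to 38 in Mid, 43 to 164 in Late and 10 to 65 in LR. DESeq2's Wald test called 107 in Early, 31 in Mid and 56 in LR. The cause of these changes was not tested. The removal of single libraries was added after the data had been seen.

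With the minipig as a replicate block, Late was -0.99 for ssc-miR-4332 (adjusted p = 0.447), and the unadjusted LR count of other rows went from 26 to 54. The block took the Early count at an adjusted p under 0.05 from 14 to 0. It changed no call of ssc-miR-4332, and the unadjusted counts in Early, Mid and Late stayed within 1.5 times. 2 or 3 animals per phase, near-empty libraries of minipig 3 after 1d and small totals in Mid and Late limit every comparison.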
